A study of Mus musculus with 15 samples.

Results

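Skin taken 5 days into a wounding course was compared with skin taken 3 days into it, using 3 RNA sequencing libraries of each time, 6 of the 15 libraries in the series. Both groups were C57BL/6 mice without any genetic change or drug named in the labels, and both carried the wound label, as did every other library of the course (day 0, 1 and 7). The libraries of each group were taken by the time label, with earlier results of these data known. The tissue was whole skin cleaned of muscle and fat and flash frozen, so each value is an average over all cell types of the sample. The sources used here do not give the wound's size or site, the share of unwounded skin, or the age and sex of the mice. Whether the replicates of a time were different animals is also not stated. The p-values and standard errors of the main fit rest on the spread among replicates over all 15 libraries. They do not measure the spread of the 6 compared libraries alone, and part of that spread may be technical.

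The skin label was checked against defining genes in the 6 libraries. The basal keratin gene Krt5 was at 1909.7, 1826 and 2362 CPM at day 3 and 1442, 1729.9 and 1915 CPM at day 5. The collagen gene Col1a1 was at 10126, 7171 and 16677 CPM at day 3 and 10596, 6751 and 11754 CPM at day 5. The endothelial gene Pecam1 was at 213, 231 and 181 CPM at day 3 and 167, 96.4 and 190.2 CPM at day 5. CPM values are counts divided by the scaled library size, which makes libraries comparable, and the order within each time is replicate 1, 2 and 3. Skeletal muscle genes were present in spite of the cleaning, at a summed 8393 to 14075 CPM at day 3 and 5742 to 9667 CPM at day 5. The libraries held 47373323 to 60450396 estimated counts.

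Among the libraries compared, day 5 replicate 2 stood apart. A list of 33 hair keratin and hair shaft genes took 2.67% of the counts of day 5 replicate 2 (95% exact binomial interval 2.666% to 2.675%, which covers counting error only). The same list took 0.126% in day 5 replicate 1 and 0.00542% in day 5 replicate 3, and between 0.00574% and 0.0233% at day 3. Over day 0, 1 and 7 it ranged from 0.00653% in day 1 replicate 1 to 3.10% in day 7 replicate 3. On the first principal component of the 6 libraries, which held 67.8% of their variance, day 5 replicate 2 lay at 90.0 and the other 5 between -31.7 and 10.1. In this library 247 genes were at least 4-fold above the other 5 libraries, and 32 of these belonged to the hair list. No other library of day 3 or day 5 had more than 3 such genes. Of 37 gene lists, day 5 replicate 2 had the lowest mean log2 level of the 6 libraries in 22 and the highest in 4. Results that rest on day 5 are therefore given library by library. For many lists, though not all, counts or medians without day 5 replicate 2 are also given.

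**Figure D1:**
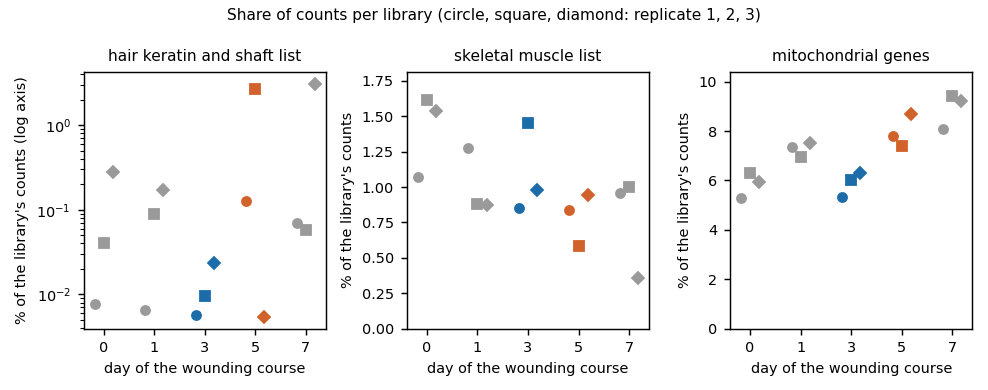
Share of each library's counts, in percent, taken by the hair keratin and shaft list (log axis), by the skeletal muscle list and by mitochondrial genes, over the 5 days of the course, 1 point per library. The hair share of day 5 replicate 2 (orange square, 2.67%) lies far above the other day 5 and day 3 libraries, while day 7 replicate 3 is at 3.10%. The mitochondrial shares of day 5 (orange) all lie above those of day 3 (blue).

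Skin repair is usually described as overlapping phases. Neutrophils and then monocytes enter the wound and release cytokines, keratinocytes at the margin change shape and migrate under the scab, and fibroblasts and vessels fill the defect with granulation tissue. Inflammation then recedes while the new epidermis stratifies and the matrix is remodelled. Cells in a fresh wound work at low oxygen and rely on glycolysis, whose end product lactate has to leave the cell.

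Of 17136 genes tested across the whole table with edgeR's quasi-likelihood test, 4 were called at an adjusted p under 0.05 (0.0233%). Slc16a3, Pf4 and Gm14548 fell from day 3 to day 5 (0.0175% of genes were called lower) and Styk1 rose (0.00584% were called higher). At an unadjusted p under 0.05 there were 2586 genes, 1223 higher and 1363 lower. At an adjusted p under 0.1 edgeR left 6 higher and 30 lower. DESeq2, run on the same counts as an alternative, called 532 genes, 193 higher (1.13%) and 339 lower (1.98%). Because the edgeR calls are so few, the groups of genes below are described by how many members had all 3 day 5 libraries on one side of all 3 day 3 libraries, which is called not overlapping here. Over all genes 9.72% were higher and 11.9% lower in this sense, with a median log2 fold change of 0.0022. Without day 5 replicate 2 these shares were 15.6% and 18.4%.

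**Figure D2:**
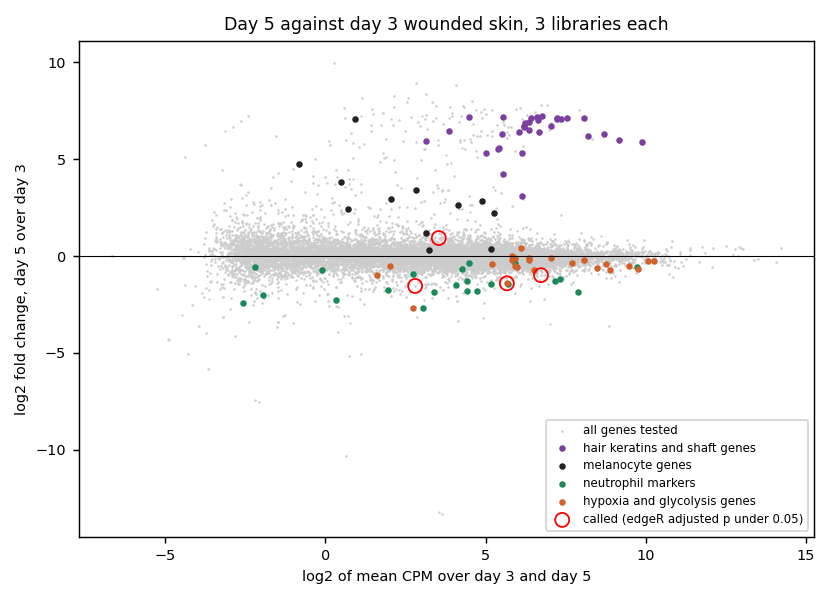
Log2 fold change of day 5 over day 3 (y axis) against the log2 of the mean CPM of both times (x axis), 1 point per gene tested, with 4 gene lists coloured and the 4 genes called by edgeR circled in red. Neutrophil markers (green) all lie below 0, and hair shaft genes (purple) all lie above 3 through the high level of day 5 replicate 2.

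Slc16a3 encodes a plasma membrane transporter (MCT4) that exports lactate. It was at 82.6, 67.8 and 70.2 CPM at day 3 and 30.7, 21.6 and 30.9 CPM at day 5. Every day 5 library lay far below every day 3 library, including the hair-rich one. The log2 fold change was -1.41 ± 0.16 (SE), with an edgeR adjusted p = 0.0159. At day 0 the mean was 37.8 ± 4.93 CPM (SD, n = 3), at day 1 88.2 ± 15.1 CPM and at day 7 23.2 ± 0.543 CPM, so the day 5 libraries lay closer to day 7 than to day 3.

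Pf4 encodes platelet factor 4, a chemokine of platelets and megakaryocytes that some macrophages also make. Its values were 147, 139.6 and 135 CPM at day 3 and 77.3, 59.02 and 76.8 CPM at day 5. The day 3 libraries were tightly grouped and none overlapped with day 5. The log2 fold change was -0.99 ± 0.12 (SE), with an edgeR adjusted p = 0.0224. The mean had been 105 ± 8.87 CPM (SD, n = 3) at day 0 and 160.4 ± 17.8 CPM at day 1, and it was 61.3 ± 5.403 CPM at day 7.

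Gm14548 is a predicted protein-coding gene that lies close to Pira2, a paired immunoglobulin-like receptor gene of myeloid cells. It was weakly expressed, at 8.85, 11.9 and 10.3 CPM at day 3 and 3.57, 3.06 and 4.04 CPM at day 5, again without overlap. The log2 fold change was -1.54 ± 0.22 (SE), with an edgeR adjusted p = 0.0415. Genes of this receptor family are near copies of each other, so the split of reads among them is uncertain. Pira2 itself was at 23.4, 32.4 and 29.8 CPM at day 3 and 12.2, 9.77 and 12.8 CPM at day 5 and missed the threshold (log2 -1.30 ± 0.20, edgeR adjusted p = 0.0561).

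Styk1, which encodes a receptor-like protein kinase, was the only gene edgeR called higher. It was at 7.59, 7.17 and 9.203 CPM at day 3 and 14.9, 14.004 and 16.8 CPM at day 5. All 3 day 5 libraries lay above all 3 day 3 libraries, with the hair-rich library the lowest of the day 5 group. The log2 fold change was 0.93 ± 0.13 (SE), with an edgeR adjusted p = 0.0415. Its mean was 10.01 ± 1.497 CPM (SD, n = 3) at day 0, 8.72 ± 0.374 CPM at day 1 and 12.3 ± 0.342 CPM at day 7, so the day 3 and day 5 means were the lowest and highest of the course.

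The 4 calls differed with the library left out. edgeR called 25 genes, these 4 among them, without day 3 replicate 3, and none when any other library but day 5 replicate 2 was left out. Without day 5 replicate 2 it called Slc16a3 alone (edgeR adjusted p = 0.0498). Without that library Pf4 was at adjusted p = 0.0648, Styk1 at 0.0754 and Gm14548 at 0.171 in edgeR. With only the 6 libraries of day 3 and day 5 none of the 4 passed, Slc16a3, Pf4 and Gm14548 each at an edgeR adjusted p = 0.151 and Styk1 at 0.189. With a replicate block edgeR kept Slc16a3 (adjusted p = 0.00635), while Pf4 was at 0.0791, Gm14548 at 0.0819 and Styk1 at 0.0905. DESeq2 called all 4 in all 6 of its fits with a library left out, the largest adjusted p being 3.1e-05 for Gm14548.

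Oxygen shortage and glycolysis formed the group to which Slc16a3 belongs. The promoters of 3 members that did not overlap between the times are shown because they hold ACGTG, the core of the site that hypoxia-inducible factors are known to bind. Each sequence is the 250 bases before the transcript start in RefSeq's table for GRCm38.p6, written 5′ to 3′ on the gene's strand. Capitals mark ACGTG or its reverse complement CACGT, and a CACGTG holds both. The Slc16a3 window is chr11:120948817-120949066 on the plus strand, with 2 matches. The Pgk1 window is chrX:106186850-106187099 on the plus strand, also with 2 matches. The Ldha window is chr7:46845554-46845803 on the plus strand, with 5 matches counted over both strands.
Slc16a3: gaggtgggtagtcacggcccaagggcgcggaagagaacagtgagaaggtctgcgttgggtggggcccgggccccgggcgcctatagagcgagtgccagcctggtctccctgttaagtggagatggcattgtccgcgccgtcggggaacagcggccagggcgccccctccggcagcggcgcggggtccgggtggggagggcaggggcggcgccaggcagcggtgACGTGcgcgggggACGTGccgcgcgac
Pgk1: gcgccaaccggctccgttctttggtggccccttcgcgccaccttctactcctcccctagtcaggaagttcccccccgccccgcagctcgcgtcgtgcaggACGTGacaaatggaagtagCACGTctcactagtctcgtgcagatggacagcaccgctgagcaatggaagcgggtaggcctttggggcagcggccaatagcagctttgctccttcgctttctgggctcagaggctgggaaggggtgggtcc
Ldha: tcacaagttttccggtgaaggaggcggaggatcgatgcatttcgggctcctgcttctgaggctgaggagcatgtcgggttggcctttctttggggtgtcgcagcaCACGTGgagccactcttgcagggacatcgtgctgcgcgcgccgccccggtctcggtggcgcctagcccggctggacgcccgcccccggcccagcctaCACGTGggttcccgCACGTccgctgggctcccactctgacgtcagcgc
Among the 24 genes of the list, 22 had a window in the table, and 14 of these (63.6%) held the core in at least 1 window. Over all 27025 gene symbols in the table the share was 18.5%. The matches describe these letters only and do not show that a factor was bound. The list and motif were chosen with earlier results known, so the shares are a description and not a test.

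Of the 24 tested hypoxia and glycolysis genes, 14 were lower at day 5 without overlap and none was higher, against 11.9% lower over all genes. Only Slc16a3 passed in edgeR, and DESeq2 called 10 of them lower. The median log2 fold change was -0.42 and was -0.39 without day 5 replicate 2. Pkm, which encodes pyruvate kinase, was at 949.6, 1113 and 1125 CPM at day 3 and 727, 553 and 720.0 CPM at day 5 (log2 -0.67 ± 0.14, edgeR adjusted p = 0.123, DESeq2 adjusted p = 0.0007900). Phosphoglycerate kinase (Pgk1) was at 367, 447 and 466 CPM at day 3 and 304, 238 and 305 CPM at day 5 (log2 -0.60 ± 0.13, edgeR adjusted p = 0.123). For both genes the hair-rich library was the lowest, but the other day 5 libraries also lay below day 3.

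Lactate dehydrogenase A (Ldha), which makes the lactate that Slc16a3 exports, was at 774, 903 and 839 CPM at day 3 and 526, 543 and 707 CPM at day 5 (log2 -0.50 ± 0.13, edgeR adjusted p = 0.161). The glucose carrier gene Slc2a1 was at 108, 113 and 117 CPM at day 3 and 72.6, 52.7 and 78.3 CPM at day 5 (log2 -0.73 ± 0.22). All 12 genes of the glycolytic enzymes and Ldha had a log2 fold change below 0, from -0.70 to -0.20, and 8 of them did not overlap. Outside the pathway itself the values were mixed. Adm, the vasodilator adrenomedullin, was at 6.33, 17.1 and 11.4 CPM at day 3 and 1.56, 0.242 and 3.54 CPM at day 5. Vegfa, the vessel growth factor, was at 40.1, 42.5 and 42.2 CPM at day 3 and 34.3, 29.98 and 28.9 CPM at day 5. Hypoxia-linked genes Pdk1, Bnip3, Egln3 and Ndrg1 overlapped between the times, with log2 fold changes of 0.022, -0.078, -0.10 and -0.12. Eno1 has near-identical copies and its value of -0.70 is uncertain.

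Neutrophil genes were lower at day 5. Of 22 tested neutrophil markers, 15 were lower without overlap, against 11.9% of all genes, and none was higher. All 22 log2 fold changes were below 0, with a median of -1.44. Without day 5 replicate 2 the median was -1.36, and 16 markers did not overlap, against 18.4% of all genes. edgeR called none of them, and DESeq2 called 5 lower. In bulk tissue, fewer cells of a type and less RNA per cell cannot be told apart. Csf3r, the receptor for the granulocyte growth factor, was at 85.6, 90.1 and 50.5 CPM at day 3 and 27.7, 29.1 and 26.03 CPM at day 5 (log2 -1.45 ± 0.25, edgeR adjusted p = 0.0861). Its day 5 values were nearly equal, whereas day 3 replicate 3 was lower than the other day 3 libraries. Mmp8, neutrophil collagenase, was at 16.6, 13.8 and 18.7 CPM at day 3 and 6.56, 2.42 and 4.76 CPM at day 5 (log2 -1.84 ± 0.40).

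S100a8 and S100a9 encode the subunits of calprotectin, an abundant neutrophil protein also made by wound keratinocytes. S100a9 was at 506, 331 and 280.2 CPM at day 3 and 179, 57.2 and 68.5 CPM at day 5. S100a8 was at 271, 174 and 160.2 CPM at day 3 and 143, 38.6 and 64.4 CPM at day 5. Neither overlapped, but day 5 replicate 1 stayed closer to day 3 than the other day 5 libraries. The granule genes Ngp, Ltf and Camp, made in the bone marrow, were under 2 CPM in all 6 libraries and overlapped. Cxcr2, a chemokine receptor of mature neutrophils, did not overlap (45.6, 36.9 and 18.5 CPM against 8.74, 11.2 and 8.7997 CPM). The stefin A genes, which are near copies of each other, were split, with Stfa1 not overlapping (-1.21) and Stfa2 overlapping (-0.35), both as log2 fold changes.

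Genes of monocytes and macrophages shared this direction. Of 19 tested markers, 12 were lower without overlap, against 11.9% of all genes, none was higher and DESeq2 called 3. Without day 5 replicate 2, 13 were lower, against 18.4% of all genes. The median log2 fold change was -0.65 and shrank to -0.43 without day 5 replicate 2. Itgam, the CD11b integrin chain of neutrophils and macrophages, was at 148, 201 and 195 CPM at day 3 and 73.98, 60.8 and 66.97 CPM at day 5 (log2 -1.43 ± 0.23, edgeR adjusted p = 0.0561). Its 3 day 5 libraries lay close together, all at under 75 CPM. The Fc receptor gene Fcgr1 was at 55.8, 100.2 and 86.8 CPM at day 3 and 49.5, 25.4 and 39.5 CPM at day 5 (log2 -1.09 ± 0.25). Cd68, a lysosomal macrophage protein, was at 161, 205 and 173 CPM at day 3 and 128, 71.4 and 115 CPM at day 5 (log2 -0.77 ± 0.21). The receptor Csf1r was at 454, 423 and 450.2 CPM at day 3 and 314, 177 and 329 CPM at day 5, and the hair-rich library was the lowest.

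Markers of resident dermal macrophages were lower in 6 of 12 genes without overlap, against 11.9% of all genes. The count was also 6 without day 5 replicate 2, against 18.4% of all genes. The median log2 fold change was -0.57, moving to -0.34 without day 5 replicate 2 and -0.83 without day 5 replicate 3. Summed over the list, day 5 replicate 3 was at 1790 CPM, within the day 3 range of 1692 to 2295 CPM. Among the lower genes were Cd209f (57.3, 34.99 and 35.2 CPM against 20.3, 13.6 and 27.7 CPM) and Cbr2 (235, 198 and 176 CPM against 114, 99.3 and 147 CPM). The scavenger genes Mertk (-0.063) and Gpnmb (-0.089) overlapped, with log2 fold changes close to 0. Of 12 genes of alternative activation, 2 were lower without overlap, against 11.9% of all genes, and 3 had a log2 fold change above 0. Their median was -0.28, and single libraries moved it, to -0.097 when day 5 replicate 2 was left out, -0.14 for day 3 replicate 3, -0.44 for day 3 replicate 2 and -0.53 for day 5 replicate 3. The pair apart were Il4ra and Chil3. Il4ra, the receptor chain for interleukins of that program, was at 284, 219.8 and 155 CPM at day 3 and 115, 84.3 and 104 CPM at day 5 (log2 -1.12 ± 0.25). Chil3 was at 15.5, 48.1 and 22.7 CPM at day 3 and 3.21, 8.88 and 5.08 CPM at day 5. Arg1, arginase of repair macrophages, was at 124, 65.6 and 92.1 CPM at day 3 and 97.8, 64.1 and 51.1 CPM at day 5 and overlapped. Further myeloid genes were lower without overlap at day 5 but did not pass in edgeR. They were Fgr, a Src family kinase (34.4, 49.1 and 31.2 CPM against 16.1, 11.5 and 15.3 CPM, adjusted p = 0.0561), Cd300ld (90.3, 84.4 and 62.995 CPM against 38.7, 24.8 and 38.3 CPM), Gpr35 (23.2, 21.8 and 21.4 CPM against 11.7, 10.2 and 10.8 CPM) and Tnfsf14 (7.63, 5.61 and 4.65 CPM against 2.34, 2.39 and 2.52 CPM).

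Complement and coagulation genes were lower in 7 of 18 tested members without overlap, against 11.9% of all genes (8 without day 5 replicate 2, against 18.4%). Their median log2 fold change was -0.45, and -0.25 without that library. Properdin (Cfp), a plasma protein that stabilises the alternative pathway enzyme and is made by myeloid cells, was at 176, 190.3 and 176 CPM at day 3 and 104, 66.4 and 91.9 CPM at day 5 (log2 -1.05 ± 0.16, edgeR adjusted p = 0.0561). The anaphylatoxin receptor C5ar1 was at 50.8, 64.6 and 49.4 CPM at day 3 and 36.9, 20.9 and 35.7 CPM at day 5 (log2 -0.82 ± 0.20). C3, the central component, was at 758, 947 and 923 CPM at day 3 and 525, 313 and 468 CPM at day 5. None of these 3 genes overlapped between the times. Factor B (Cfb) was at 339, 273 and 294 CPM at day 3 and 179, 85.2 and 203 CPM at day 5. In all 4 genes day 5 replicate 2 was the lowest library.

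Inflammatory cytokine and chemokine genes were lower in 13 of 28 tested members without overlap, against 11.9% of all genes. None was higher, and DESeq2 called 5 lower. The median log2 fold change was -1.06 and was -0.68 without day 5 replicate 2. Il6 was at 3.62, 4.32 and 3.75 CPM at day 3 and 0.589, 0.858 and 0.62996 CPM at day 5 (log2 -2.49 ± 0.63, edgeR adjusted p = 0.161). Its 6 values formed tight, separate groups at a low level. Ccl2, which attracts monocytes, was at 29.9, 63.7 and 44.4 CPM at day 3 and 15.5, 13.7 and 15.1 CPM at day 5 (log2 -1.64 ± 0.48). Cxcl1, which attracts neutrophils through Cxcr2, was at 8.25, 14.4 and 16.3 CPM at day 3 and 2.01, 1.29 and 1.12 CPM at day 5 (log2 -3.13 ± 1.01).

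Several cytokine genes split the day 5 libraries. Il1b was at 168, 122 and 128 CPM at day 3 and 60.8, 11.2 and 11.3 CPM at day 5. Ptgs2, the inducible prostaglandin synthase, was at 22.2, 29.9 and 29.98 CPM at day 3 and 13.2, 2.96 and 3.66 CPM at day 5. Cxcl2 was at 38.4, 26.5 and 51.7 CPM at day 3 and 47.1, 2.704 and 2.42 CPM at day 5. In each of these genes day 5 replicate 1 lay several-fold above the other day 5 libraries, and for Cxcl2 it lay within the day 3 range. Ccl3 (9.27, 10.7 and 23.4 CPM against 21.5, 3.62 and 4.72 CPM) and Ccl4 (12.1, 12.7 and 24.7 CPM against 19.9, 2.87 and 2.85 CPM) had the same layout. Il33, an alarmin held in nuclei of barrier cells, was at 309, 177 and 208 CPM at day 3 and 142, 60.5 and 88.8 CPM at day 5. Interferon-stimulated genes had a median log2 fold change of -0.47, but none of 20 was free of overlap, and the median was -0.26 without day 5 replicate 2. It was -0.31 when day 3 replicate 2 was left out and -0.79 when day 5 replicate 1 was.

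**Figure D3:**
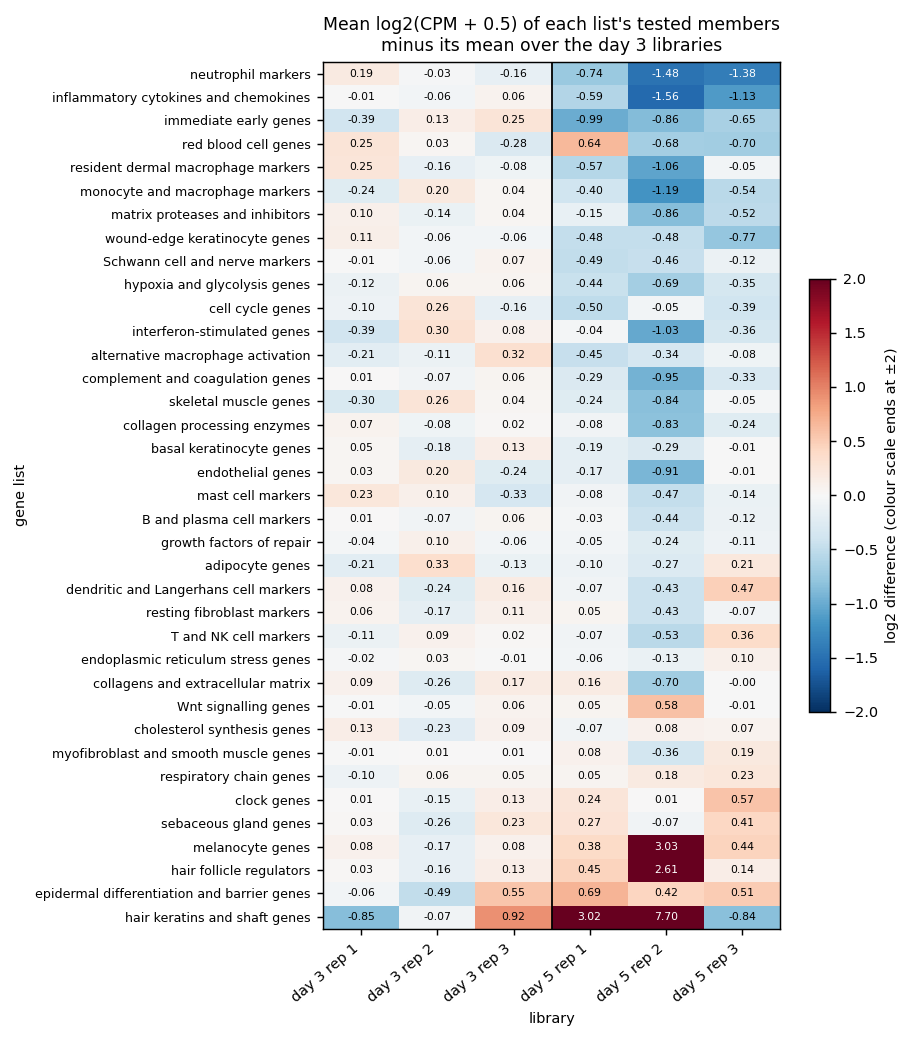
Mean log2(CPM + 0.5) of each gene list's tested members in each library (columns), minus the list's mean over the day 3 libraries, with lists (rows) ordered by the median of the day 5 libraries. Neutrophil markers were at -0.74, -1.48 and -1.38 in day 5 replicates 1 to 3, and the hair list ran from -0.84 in replicate 3 to 7.70 in replicate 2 (colours end at ±2).

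Immediate early genes, whose RNA appears soon after a stimulus, were lower in 9 of 20 members without overlap, against 11.9% of all genes. With all libraries 1 member was higher. Without day 5 replicate 2, 11 were lower, against 18.4% of all genes. DESeq2 called 6 lower and edgeR none. The median log2 fold change was -0.57, and -0.60 without day 5 replicate 2. The promoters of Dusp1 and Fos are shown because both hold TGACGT, a core of the cyclic AMP response element. The Dusp1 window is chr17:26508473-26508722 on the minus strand, with 3 matches over both strands, and the Fos window is chr12:85473640-85473889 on the plus strand, with 1 match. Capitals mark TGACGT or its reverse complement ACGTCA, and TGACGTCA holds both. The Slc16a3 and Ldha windows shown earlier also hold TGACGT, and the Dusp1 window also holds ACGTG. These further matches are not marked as such.
Dusp1: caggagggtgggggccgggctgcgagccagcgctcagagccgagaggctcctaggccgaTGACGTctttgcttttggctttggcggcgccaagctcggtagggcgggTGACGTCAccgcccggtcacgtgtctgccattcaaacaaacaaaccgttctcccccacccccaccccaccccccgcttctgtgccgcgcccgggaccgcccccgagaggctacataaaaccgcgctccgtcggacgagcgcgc
Fos: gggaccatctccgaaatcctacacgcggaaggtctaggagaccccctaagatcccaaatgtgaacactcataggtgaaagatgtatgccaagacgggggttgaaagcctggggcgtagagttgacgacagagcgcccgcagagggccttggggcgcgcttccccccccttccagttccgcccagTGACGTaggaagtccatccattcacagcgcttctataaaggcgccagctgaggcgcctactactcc
Of the 20 genes in the list, 16 had a window in RefSeq's table and 6 of these (37.5%) held the core, against 7.29% of all gene symbols. Here too the matches do not show that a factor was bound. The list and motif were chosen with earlier results known, so these shares are not a test.

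Dusp1 encodes a phosphatase that switches off MAP kinases. It was at 122, 205 and 235 CPM at day 3 and 41.8, 29.3 and 50.04 CPM at day 5 (log2 -2.21 ± 0.38, edgeR adjusted p = 0.0861, DESeq2 adjusted p = 3.09e-06). Fos, a subunit of the AP-1 transcription factor, was at 61.2, 308 and 345 CPM at day 3 and 16.2, 14.9 and 31.6 CPM at day 5 (log2 -3.51 ± 0.87, edgeR adjusted p = 0.161). Day 3 replicate 1 was several-fold below the other day 3 libraries for Fos, though still above every day 5 library. Fosb had the same layout (11.6, 37.7 and 46.9 CPM against 1.96, 0.671 and 6.95 CPM). Zfp36, which encodes a protein that destabilises cytokine RNA, was at 72.4, 189 and 194 CPM at day 3 and 44.5, 54.3 and 59.9 CPM at day 5 (log2 -1.52 ± 0.44).

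The spread of these genes was wide elsewhere in the course. Fos had a mean of 145 ± 170.1 CPM (SD, n = 3) at day 0, 300.2 ± 56.2 CPM at day 1 and 18.2 ± 6.19 CPM at day 7. Egr1 overlapped (43.6, 133 and 159.5 CPM against 36.7, 70.7 and 37.9 CPM) and Myc overlapped (36.7, 34.6 and 29.1 CPM against 22.5, 33.5 and 27.8 CPM). Egr3 was the member with higher values (16.5, 13.7 and 17.8 CPM against 19.4, 36.7 and 20.6 CPM), with day 5 replicate 2 well above the rest.

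Keratinocyte genes are described as a wound-edge and a barrier group. Of 24 wound-edge genes, 13 were lower at day 5 without overlap, against 11.9% of all genes, and none was higher. The median log2 fold change was -0.70. Without day 5 replicate 2 it was -0.69, and 15 did not overlap, against 18.4% of all genes. edgeR called none and DESeq2 called Itga5. Of 25 tested barrier genes, 24 had a log2 fold change above 0, with a median of 0.58 (0.61 without day 5 replicate 2). Only 2 (8%) were higher without overlap, against 9.72% of all genes. The median was 0.29 without day 3 replicate 2 and 0.96 without day 3 replicate 3, and the mean of the list in day 3 replicate 3 lay above that in day 5 replicates 2 and 3. When day 5 replicate 2 was left out, 8 did not overlap, against 15.6% of all genes.

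Genes of laminin chains of the basement membrane were lower in all 3 day 5 libraries. Lama3 was at 80.8, 79.8 and 100.2 CPM at day 3 and 57.6, 42.9 and 48.4 CPM at day 5 (log2 -0.81 ± 0.31, edgeR adjusted p = 0.275). Lamb3 was at 84.6, 83.8 and 89.6 CPM at day 3 and 58.1, 39.1 and 62.1 CPM at day 5. Neither chain overlapped between the times. Itga5, the fibronectin receptor chain, was at 90.2, 113 and 88.6 CPM at day 3 and 69.5, 43.6 and 69.3 CPM at day 5 (log2 -0.68 ± 0.18, DESeq2 adjusted p = 0.0224). Plaur, the urokinase receptor, was at 35.9, 30.7 and 29.2 CPM at day 3 and 21.9, 12.8 and 18.3 CPM at day 5.

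The stress keratin Krt6a, made in wound epidermis, was at 2299, 1993 and 2366 CPM at day 3 and 1333, 1007 and 1204 CPM at day 5. Krt16, its type I partner, was at 1059, 1041 and 1109.8 CPM at day 3 and 720.2, 447 and 578 CPM at day 5. Both were lower in all 3 day 5 libraries, but the fitted errors were large (log2 -0.91 ± 0.75 and -0.88 ± 0.83). These errors come from the fit over all 15 libraries of the course. Krt6a and Krt6b are near copies, so their split is uncertain. Krt17, which hair follicles also make, was at 681, 501 and 629 CPM at day 3 and 526, 1090.5 and 541 CPM at day 5, with the hair-rich library above all others. The wound growth factors of the epidermal growth factor family did not share a direction, with Hbegf at 18.97, 18.2 and 15.8 CPM against 9.18, 10.4 and 8.98 CPM, Areg at 10.9, 11.1 and 6.41 CPM against 4.698, 10.1 and 4.31 CPM and Ereg at 8.33, 6.65 and 16.1 CPM against 14.7, 14.9 and 25.8 CPM.

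Among barrier genes, corneodesmosin (Cdsn), which holds cornified cells together, was at 205, 201 and 272 CPM at day 3 and 355, 461 and 319 CPM at day 5 (log2 0.74 ± 0.25). The lipoxygenase gene Aloxe3, needed for barrier lipids, was at 11.6, 7.801 and 13.3 CPM at day 3 and 17.8, 15.6 and 19.5 CPM at day 5 (log2 0.69 ± 0.20, DESeq2 adjusted p = 0.0358). Loricrin (Lor) was at 459.6, 253 and 779 CPM at day 3 and 939, 616 and 1070.3 CPM at day 5. In Lor the lowest library was day 3 replicate 2. Krt10, the keratin of suprabasal cells, was at 992, 1051 and 2431 CPM at day 3 and 2317, 1309 and 2536 CPM at day 5. For both Lor and Krt10, day 3 replicate 3 lay within the day 5 range, well above the other day 3 libraries. Ccl27a, a skin chemokine of keratinocytes, was at 24.7, 10.9 and 26.2 CPM at day 3 and 41.2, 40.4 and 42.4 CPM at day 5 (log2 1.00 ± 0.31, edgeR adjusted p = 0.228). Trpv3, a heat-gated channel of keratinocytes, was at 12.1, 8.97 and 13.1 CPM at day 3 and 21.3, 50.2 and 18.9 CPM at day 5. Basal genes were lower in 5 of 12 members without overlap, against 11.9% of all genes. Krt14 was among the lower ones (4935, 4299 and 5898 CPM against 3653, 2712 and 3998 CPM).

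Matrix genes did not move as one. Of 30 collagen and extracellular matrix genes, 3 did not overlap, all lower (Tnc, Thbs1 and Col4a2), which is near the background of 11.9%. The 6 fibrillar collagen chains all overlapped, with log2 fold changes from -0.49 to -0.088. Tenascin C (Tnc), a matrix protein of early wounds, was at 719, 632 and 419.6 CPM at day 3 and 350.2, 215 and 253 CPM at day 5 (log2 -1.11 ± 0.52). Thrombospondin 1 (Thbs1) was at 292, 233 and 211 CPM at day 3 and 143, 99.4 and 121 CPM at day 5 (log2 -1.01 ± 0.48). Periostin (Postn), made by fibroblasts of granulation tissue, was at 1430.1, 1077 and 1389 CPM at day 3 and 3398, 1315 and 2083 CPM at day 5 (log2 0.80 ± 0.33). The hair-rich library lay within the day 3 range for Postn, and the other day 5 libraries lay above it. The mean of Postn was 3533 ± 194 CPM at day 7 (SD, n = 3).

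Has2 makes hyaluronan, a swelling polymer of early wound matrix. It was at 21.7, 25.6 and 28.8 CPM at day 3 and 9.87, 8.54 and 9.59 CPM at day 5 (log2 -1.44 ± 0.21, edgeR adjusted p = 0.0559), the smallest adjusted p among the genes named here that edgeR did not call. Pentraxin 3 (Ptx3), which binds and cross-links hyaluronan complexes, was at 30.2, 23.3 and 16.4 CPM at day 3 and 7.64, 3.38 and 4.82 CPM at day 5 (log2 -2.14 ± 0.34, edgeR adjusted p = 0.0596). Ptx3 had peaked earlier, with a mean of 113 ± 6.34 CPM at day 1 (SD, n = 3). DESeq2 gave adjusted p = 5.12e-07 for Has2 and 7.39e-07 for Ptx3.

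Proteases and their inhibitors were lower in 7 of 20 members without overlap and higher in 1, against 11.9% and 9.72% of all genes. Mmp9, gelatinase B, was at 54.7, 67.1 and 46.1 CPM at day 3 and 32.8, 23.1 and 15.4 CPM at day 5 (log2 -1.24 ± 0.34). Timp1, a secreted inhibitor of such enzymes, was at 161, 126 and 71.7 CPM at day 3 and 67.04, 43.1 and 51.6 CPM at day 5. Both genes were lower without overlap. The member that was higher without overlap was Timp3, an inhibitor bound to matrix, at 148, 151 and 202 CPM at day 3 and 228, 271 and 287 CPM at day 5 (log2 0.65 ± 0.14, edgeR adjusted p = 0.123, DESeq2 adjusted p = 0.000953). Its day 0 mean was 277 ± 35.7 CPM (SD, n = 3).

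Collagen processing enzymes were lower in 8 of 18 members without overlap, against 11.9% of all genes. All 18 log2 fold changes were below 0, and the median was -0.33. Without day 5 replicate 2 the median was -0.14, with 8 members still apart, against 18.4% of all genes. Plod3, a lysyl hydroxylase, was at 108, 109.7 and 89.6 CPM at day 3 and 80.4, 58.8 and 81.1 CPM at day 5 (log2 -0.48 ± 0.13). P4hb, a subunit of prolyl hydroxylase, was at 804, 817 and 755 CPM at day 3 and 725, 539 and 667 CPM at day 5. In both genes replicate 2 was the furthest below day 3.

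Prss35, which encodes a protease-like secreted protein, was among the genes with higher values, at 8.18, 4.36 and 6.41 CPM at day 3 and 63.6, 28.1 and 27.01 CPM at day 5 (log2 2.65 ± 0.68, edgeR adjusted p = 0.164, DESeq2 adjusted p = 0.00237). Every day 5 library was more than 3-fold above every day 3 library. The mean of Prss35 reached 132 ± 47.3 CPM at day 7 (SD, n = 3). Lrrc15, a membrane protein of activated fibroblasts, was at 64.7, 52.6 and 66.97 CPM at day 3 and 234, 477 and 93.3 CPM at day 5. Edil3, a matrix protein of developing vessels, was at 2.27, 2.31 and 2.9998 CPM at day 3 and 9.102, 4.77 and 4.803 CPM at day 5 (log2 1.30 ± 0.33). Acta2, the smooth muscle actin of myofibroblasts, was at 208, 249 and 230.1 CPM at day 3 and 243, 139 and 266 CPM at day 5 and overlapped. Of 16 myofibroblast and smooth muscle genes Lrrc15 was the 1 that was higher without overlap, against 9.72% of all genes, and none was lower. Of 15 resting fibroblast markers 2 were lower without overlap, near the 11.9% of all genes, and none was higher. Among these was Pdgfra, the platelet-derived growth factor receptor of fibroblasts, at 275, 194 and 205 CPM at day 3 and 154, 111 and 142 CPM at day 5 (log2 -0.73 ± 0.20, DESeq2 adjusted p = 0.0265).

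Of 13 tested Schwann cell and nerve markers, 6 were lower at day 5 without overlap, against 11.9% of all genes. In 4 of the 13 the log2 fold change was above 0. The myelin genes Mbp, Prx, Mag, Ncmap and Drp2 were among those lower without overlap, and the median log2 fold change of these 5 was -0.79. They were picked out of the 13 genes of the Schwann cell list after the values were seen. Mbp, a protein that compacts the myelin sheath, was at 72.3, 69.3 and 77.1 CPM at day 3 and 37.4, 43.9 and 59.4 CPM at day 5 (log2 -0.64 ± 0.34, edgeR adjusted p = 0.402). Its mean was 172 ± 9.49 CPM (SD, n = 3) at day 0 and 86.6 ± 29.3 CPM at day 1. S100b (3.03, 4.65 and 4.55 CPM against 4.29, 4.16 and 4.92 CPM) and Cdh19 (12.1, 8.11 and 15.5 CPM against 19.1, 12.4 and 21.3 CPM), from the same list, overlapped.

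Of 26 growth factor genes, 5 were lower without overlap, against 11.9% of all genes, and 2 (7.69%) were higher, against 9.72%. There were 10 log2 fold changes above 0. With day 5 replicate 2 left out, 6 (23.1%) were lower, against 18.4% of all genes, and 3 (11.5%) higher, against 15.6%. Fgf7, the keratinocyte growth factor of dermal fibroblasts, was at 36.98, 34.6 and 31.8 CPM at day 3 and 25.6, 25.6 and 24.2 CPM at day 5 (log2 -0.46 ± 0.10, DESeq2 adjusted p = 0.00656), with little spread within either time. Csf1, the macrophage growth factor, was at 102, 109 and 103 CPM at day 3 and 65.4, 48.8 and 63.7 CPM at day 5 (log2 -0.82 ± 0.21, DESeq2 adjusted p = 0.0157). Tgfb1 was at 82.8, 108 and 74.2 CPM at day 3 and 63.7, 46.7 and 62.9 CPM at day 5. The pair with higher values were Bdnf, a neurotrophin (1.33, 0.8804 and 1.59 CPM against 2.13, 2.26 and 2.19 CPM), and Pdgfa, a platelet-derived growth factor chain (17.2, 20.1 and 21.1 CPM against 21.4, 22.2 and 22.4 CPM). Endothelial genes were lower in 3 of 23 members without overlap, close to the background. Their median of -0.37 was -0.11 without day 5 replicate 2. It was -0.23 when day 3 replicate 2 was left out and -0.58 when day 5 replicate 3 was.

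Genes carried by mitochondrial DNA were higher at day 5 while nuclear genes of the same complexes were not. Mitochondrial genes took 5.33% to 6.29% of the counts at day 3 and 7.41% to 8.68% at day 5. All 13 protein genes of mitochondrial DNA had a log2 fold change above 0, with a median of 0.46. Of these, 10 were higher without overlap, against 9.72% of all genes. Of the 14 nuclear genes in the respiratory chain list none was free of overlap with all 6 libraries, and their median was -0.015. Without day 5 replicate 2, 9 of the list's 23 genes were higher and 2 lower, against 15.6% and 18.4% of all genes. mt-Nd4, a subunit of complex I, was at 4489, 4397 and 5487 CPM at day 3 and 7068, 5696 and 7581 CPM at day 5 (log2 0.50 ± 0.14, edgeR adjusted p = 0.207, DESeq2 adjusted p = 0.00764). mt-Co1, a subunit of complex IV, was at 15363, 15459 and 17732 CPM at day 3 and 22117, 17989.8 and 25070.5 CPM at day 5, whereas its nuclear partner Cox4i1 was at 276, 283 and 238 CPM at day 3 and 249, 283 and 281 CPM at day 5.

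**Figure D4:**
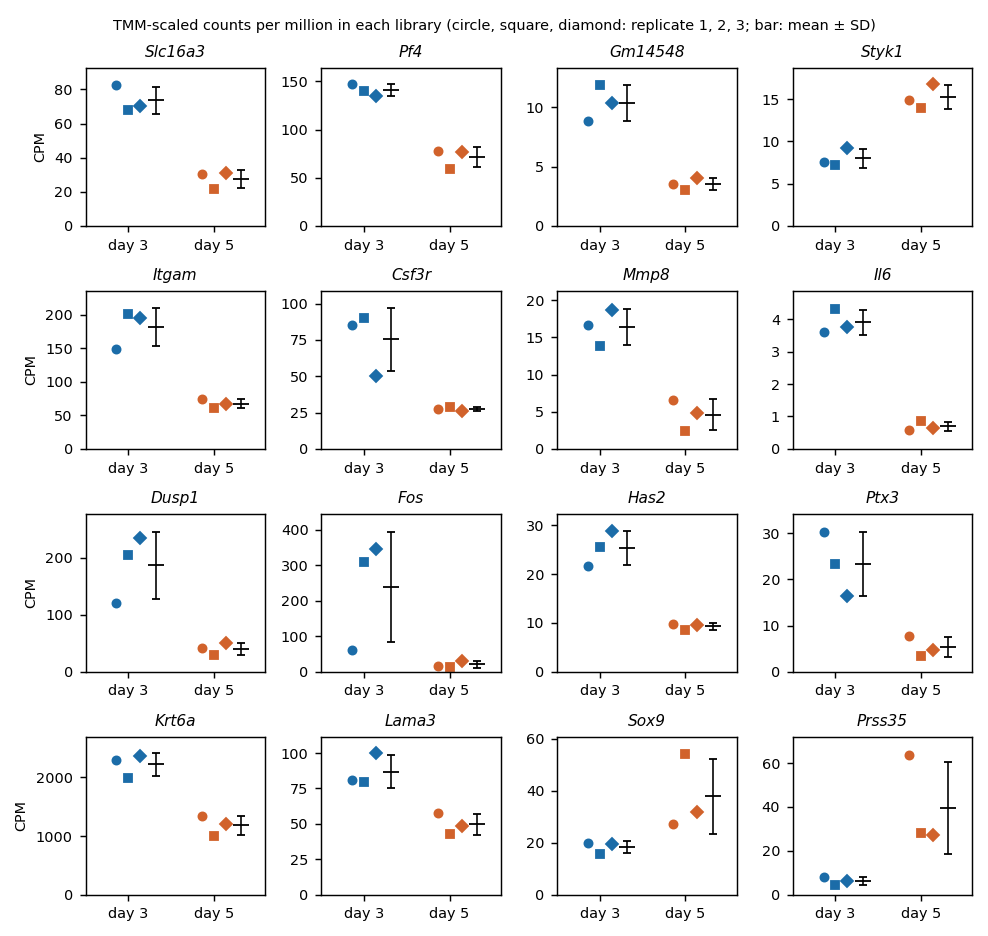
TMM-scaled CPM (y axis, linear, from 0) of 16 genes in each day 3 (blue) and day 5 (orange) library, with the mean and SD of each time beside the points. The 4 genes of the top row are those called by edgeR; in Sox9 the hair-rich day 5 replicate 2 (square, 54.4 CPM) is above both other day 5 libraries, while in Prss35 replicate 1 (circle, 63.6 CPM) is.

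Hair follicle genes were highest in 1 day 5 library, and the day 5 libraries differed widely. All 32 tested hair keratin and shaft genes had a log2 fold change above 0, with a median of 6.59 (2.46 without day 5 replicate 2). Only 1 of them, Krtap3-2, was higher without overlap, against 9.72% of all genes. DESeq2 called 10 higher, against 1.13% of all genes. Krt71, a keratin of the inner root sheath, was at 2.56, 11.9 and 38.8 CPM at day 3 and 216, 3162 and 2.11 CPM at day 5. Tchh, trichohyalin of the same sheath, was at 11.98, 21.9 and 62.3 CPM at day 3 and 331, 5269.8 and 12.2 CPM at day 5. In both genes replicate 3 was at or near the lowest day 3 value, replicate 1 was above all of day 3, and replicate 2 was more than 10-fold above replicate 1.

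Pigment cell genes were likewise highest in day 5 replicate 2. Of 12 melanocyte genes, 8 were higher without overlap, against 9.72% of all genes. The median log2 fold change of 2.74 was 0.64 without day 5 replicate 2. Dct, an enzyme of melanin synthesis, was at 16.5, 9.64 and 14.02 CPM at day 3 and 18.8, 149 and 23.5 CPM at day 5 (log2 2.25 ± 0.93). Pmel, the fibre protein of the pigment granule, was at 6.16, 3.501 and 4.88 CPM at day 3 and 7.06, 75.2 and 7.74 CPM at day 5. Replicates 1 and 3 lay just above the day 3 range, and replicate 2 several-fold above it. Mitf, the master regulator of pigment cells, was at 32.3, 28.4 and 34.4 CPM at day 3 and 36.9, 49.8 and 35.3 CPM at day 5. DESeq2 gave no call for any melanocyte gene, in 8 cases because it returned no adjusted p.

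Of 22 regulators of the follicle, 5 were higher without overlap, against 9.72% of all genes. With the hair-rich library left out, 5 were higher, against 15.6% of all genes, and 1 was lower. Sox9, a transcription factor of the bulge and outer root sheath, was at 19.96, 15.8 and 19.4 CPM at day 3 and 27.3, 54.4 and 31.97 CPM at day 5 (log2 1.04 ± 0.23, edgeR adjusted p = 0.141, DESeq2 adjusted p = 0.00358). Sostdc1, an inhibitor of Wnt and BMP signals, was at 25.01, 24.6 and 26.6 CPM at day 3 and 30.4, 49.2 and 32.97 CPM at day 5 (log2 0.56 ± 0.16). Dlx3 was at 5.87, 6.51 and 7.84 CPM at day 3 and 16.2, 190.2 and 9.33 CPM at day 5. Without day 5 replicate 2 the median of the 22 regulators was 0.44 in place of 1.29. The stem cell gene Lgr5 overlapped (45.5, 16.4 and 29.8 CPM against 19.9, 28.3 and 29.8 CPM), as did Krt15 (558, 254 and 583 CPM against 538, 462 and 752 CPM).

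Other genes named as higher had the hair-rich library on top. Hopx, a cofactor without DNA binding found in skin stem cells and differentiating keratinocytes, was at 65.9, 42.3 and 69.3 CPM at day 3 and 103, 176 and 129 CPM at day 5 (log2 1.20 ± 0.27, edgeR adjusted p = 0.141). Foxq1, known for its role in hair, was at 10.2, 7.45 and 13.3 CPM at day 3 and 15.9, 38.5 and 17.9 CPM at day 5 (log2 1.22 ± 0.37). Atg9b, an autophagy gene, was at 28.8, 19.8 and 33.7 CPM at day 3 and 54.4, 75.6 and 48.6 CPM at day 5 (log2 1.12 ± 0.24). Without day 5 replicate 2 their log2 fold changes were 0.98, 0.72 and 0.91. In contrast, Ceacam3 (3.501, 2.27 and 2.29 CPM against 8.48, 5.26 and 9.55 CPM) and Crygn (4.43, 2.23 and 3.43 CPM against 6.65, 5.17 and 12.6 CPM) were highest in replicate 3, and Zim1 (2.24, 2.13 and 2.04 CPM against 7.76, 5.17 and 2.93 CPM) in replicate 1. None of these genes was called by edgeR.

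Cell cycle values also moved with single libraries. With all 6 libraries, 6 of 28 were lower without overlap, against 11.9% of all genes, and the median log2 fold change was -0.33. Without day 5 replicate 2, 24 of 28 were lower without overlap, against 18.4% of all genes, and the median was -0.48. Without day 3 replicate 2, the library with the highest values of the list, the median was -0.16. Mki67, present in dividing cells, was at 121, 135 and 131 CPM at day 3 and 105, 155 and 109.6 CPM at day 5. Mcm3, a subunit of the replicative helicase, was at 38.1, 54.4 and 39.8 CPM at day 3 and 27.1, 31.9 and 30.8 CPM at day 5 (log2 -0.56 ± 0.19). Plk1, a mitotic kinase, was at 20.6, 28.3 and 18.6 CPM at day 3 and 12.8, 17.96 and 12.6 CPM at day 5. In each of them day 5 replicate 2 was the highest of the day 5 libraries. edgeR and DESeq2 called none of the 28.

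Clock genes were another list in which a library mattered. Of 15 genes, 2 were higher without overlap with all libraries, against 9.72% of all genes. Without day 5 replicate 2, 8 were higher, against 15.6% of all genes. Per2 was at 7.36, 4.14 and 5.96 CPM at day 3 and 9.12, 6.82 and 19.7 CPM at day 5 (log2 1.03 ± 0.36) and Hlf at 8.33, 7.17 and 10.6 CPM at day 3 and 13.7, 10.6 and 22.1 CPM at day 5, with replicate 3 the highest in both. Counts near or below the background were found for T and NK cells (1 of 19 higher), mast cells (1 of 8 lower), adipocytes (0 of 14), skeletal muscle (0 of 20), red blood cells (0 of 5) and sebaceous glands (0 of 12, though 5 of 12 were higher without day 5 replicate 2). Without that library 2 of 19 T and NK cell, 2 of 20 skeletal muscle and 1 of 14 adipocyte genes were higher.

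**Figure D5:**
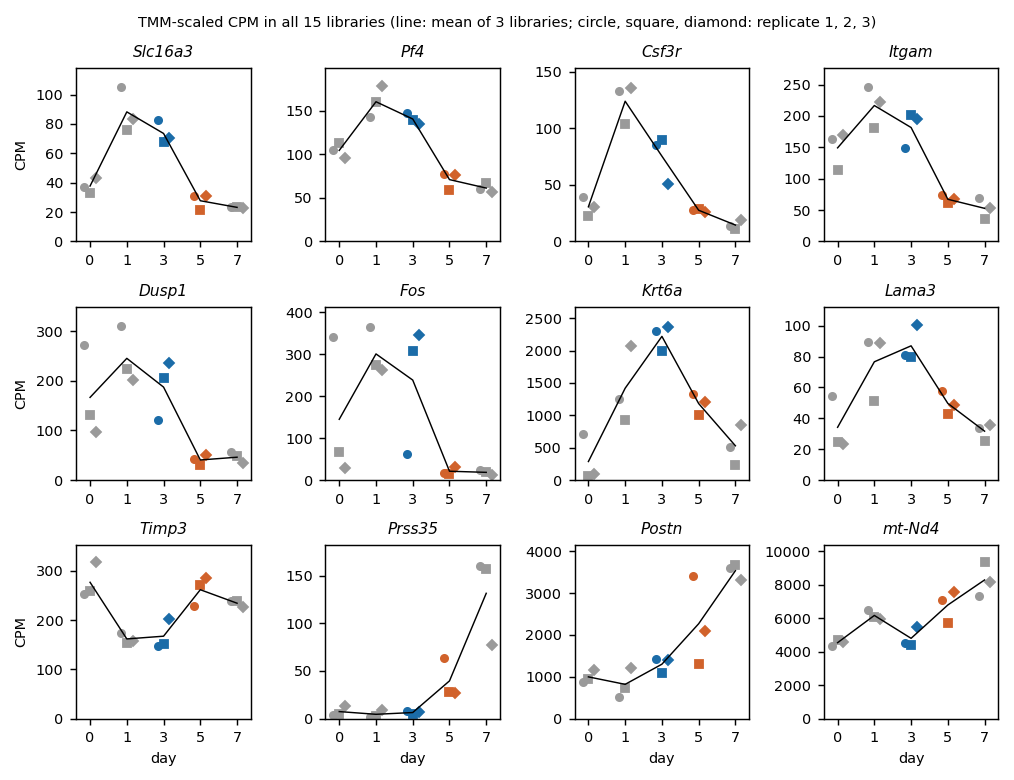
TMM-scaled CPM (y axis, linear, from 0) of 12 genes in all 15 libraries over day 0, 1, 3, 5 and 7 (x axis), with lines through the mean of 3 libraries and day 3 and day 5 in blue and orange. Slc16a3 went from a day 1 mean of 88.2 CPM to 23.2 CPM at day 7, and Prss35 from 4.45 to 132 CPM.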

How the data were processed

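RNA was sequenced from mouse skin, and the authors deposited estimated counts per gene symbol. The submitters' processing notes name kallisto 0.43. The sources used here do not give the transcript index, the genome build or the use of strand, so near-identical, overlapping and antisense genes are uncertain. The counts were whole numbers as deposited and rounding left them unchanged. In each library 26 rows named by calendar dates, which held 0.155% to 0.170% of the counts, were left out.

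Genes were kept by edgeR's filter at a minimum count of 10, which left 17136 of 30281. Libraries were scaled by TMM. One quasi-likelihood model (edgeR 4.0.16, limma 3.58.1, R 4.3.3) was fitted over all 15 libraries with the 5 times as groups, and day 5 was contrasted with day 3. P-values are two-sided and Benjamini-Hochberg adjusted over all genes tested. Standard errors were derived from the F statistic. DESeq2 1.42.0, other scalings, filters and library sets were alternatives. The spread between replicates, a common biological coefficient of variation of 30.9%, exceeds counting error at this depth.

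Genes were named by a rule: up to 12 per direction with at least 2-fold change, 5 CPM and no overlap, called genes first and then by p, plus leading members of each of 37 gene lists and set wound genes. Others, and the genes described from the lists, were picked after their values were seen. Members, lists and motifs were chosen with earlier results of these data known. The lists held 691 genes, and the files held 684 of them, of which 681 were tested. Some genes of the lists are not reported here by name. Promoters come from RefSeq's table for GRCm38.p6.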

Additional observations from a re-analysis of the deposited data

How the results depend on the processing

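The number of genes edgeR called was 4 with RLE or upper-quartile scaling and without robust dispersion. It was 9 without an expression filter (8 lower), 10 at a minimum count of 50 (2 higher, 8 lower) and 8 in limma-voom (2 higher, 6 lower). With only the 6 libraries of day 3 and day 5 it was 0, although 2162 genes had an unadjusted p under 0.05. DESeq2 called 532 (193 higher, 339 lower). Leaving out 1 library gave 0 to 25 calls in edgeR, 0 to 7 higher and 0 to 18 lower. The 25 came without day 3 replicate 3. Leaving out day 3 replicate 1 or 2 or day 5 replicate 1 or 3 gave 0, with 1818, 1252, 2684 and 2663 genes at an unadjusted p under 0.05, and leaving out day 5 replicate 2 gave 1. In DESeq2, chosen after seeing the data, the calls were 239 (65 higher, 174 lower) without day 3 replicate 1, 79 (17, 62) without replicate 2 and 821 (397, 424) without replicate 3. They were 603 (185 higher, 418 lower) without day 5 replicate 1, 158 (61, 97) without replicate 2 and 451 (139, 312) without replicate 3. The cause was not tested.

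Replicates share the numbers 1 to 3, but deviations of same-numbered libraries from their group means correlated at -0.048, -0.029 and -0.23, so the numbers were not taken to pair them. With a replicate block edgeR called 1 gene, Slc16a3, which was lower, and 0 higher. With the replicate block and only 6 libraries it called 0, with 1777 at an unadjusted p under 0.05. In all, 119 genes were followed through the settings, except the DESeq2 fits with a library left out. Of these, 112 kept their direction in every setting that gave them an adjusted p. The 7 that did not in some setting (Hba-a1, Hba-a2, Krt17, Col1a1, Acta2, Mmp13 and Mki67) were never called in the main fit.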

Other observations

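Several lists had counts near the background with all 6 libraries, and some moved without day 5 replicate 2, when 15.6% of all genes were higher and 18.4% lower without overlap. Wnt signalling genes were higher without overlap in 1 of 20 members and lower in 1, and their median log2 fold change of 0.34 was 0.027 without day 5 replicate 2, where 5 were lower, and 0.17 without day 3 replicate 2. Endoplasmic reticulum stress genes were split, with 2 of 19 higher and 2 lower (5 and 3 without day 5 replicate 2), as were cholesterol synthesis genes, with 1 of 18 each way (1 higher and 3 lower without that library). B and plasma cell genes were lower in 2 of 8 members. Dendritic and Langerhans cell genes were higher in 1 of 12 (Epcam, 59.3, 42.1 and 75.6 CPM against 80.6, 137 and 95.7 CPM) and lower in 1 (Ccr7, 5.100, 4.46 and 4.31 CPM against 1.997, 1.44 and 3.39 CPM), and with day 5 replicate 2 left out, 4 of 12 (33.3%) were higher and 1 lower. In the collagen list, 4 of 30 members were higher without overlap once day 5 replicate 2 was left out, against 15.6% of all genes.

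Chosen after their values were seen, the widest falls in level belonged to genes with uneven day 3 libraries. The hormone gene Fgf23, known from bone, was at 8.53, 3.54 and 0.327 CPM at day 3 and 0.115, 0.149 and 0.0984 CPM at day 5 (log2 -5.07 ± 1.23, edgeR adjusted p = 0.157). The pseudogene Rpl28-ps1 was at 19.5, 47.2 and 7.88 CPM at day 3 and was listed at 0 in all 3 day 5 libraries, and Gm12918 was at 0, 70.3 and 0 CPM at day 3 and at 0 in day 5. Neither was called by edgeR.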
